A study of Mus musculus with 64 samples.

Results

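A group of 10 genes that are known targets of hypoxia-inducible factor 1 (HIF1) and that do not encode glycolytic enzymes were followed in mouse gastrocnemius muscle. They were Bnip3, Bnip3l, Ddit4, Pfkfb3, Adm, Ndrg1, Kdm3a, Mxi1, P4ha1, and Tfrc, listed by name as known targets of HIF1. These were 10 of the 55401 genes in the count table, and all 10 were among the 15241 genes with enough counts to be tested. The study crossed Hif1α-floxed mice with mice that carry Cre recombinase under the human α-skeletal actin promoter, which is active in muscle fibers, so that HIF1α KO mice lose the floxed exon in fibers while the other cells of the muscle keep the gene. Control mice (fl/fl) were homozygous for the floxed allele without Cre, and all mice were on a C57BL/6JBomTac background. Adult mice of each genotype either ran on a treadmill for 60 min (16 m/min, 5% incline) or were sham-treated. This was done at ZT3 or ZT15, where ZT is zeitgeber time in h after lights on, and muscle was taken 3 h later. Each of the 8 groups had 4 male and 4 female mice, except exercised HIF1α KO mice at ZT3, in which the library of 1 male held 382 counts and was left out.

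HIF1 is a transcription factor whose α subunit is destroyed when oxygen is plentiful and accumulates when oxygen is scarce, after which the complex binds short hypoxia response elements near its targets. Besides glycolysis, the targets cover the removal of mitochondria, the slowing of growth signals, blood vessel tone, chromatin, collagen, and iron uptake. In skeletal muscle, oxygen falls during contraction, and the factor is also tied to the circadian clock, whose own activators bind a related sequence, the E-box.

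The 63 libraries held between 2359780 and 40377963 counts (median 16236352), and 3 of them (mice 41, 42, and 48) were much shallower than the others, at under 5000000. Skeletal fiber markers summed to between 204107 and 338342 CPM in every library, where CPM is a count scaled to the size of its library and 1 CPM stands for 2.36 to 40.4 counts, so the tissue label fitted its defining markers. The Hif1a gene itself had 36.4 ± 6.31 CPM (SD, n = 32) in fl/fl muscle and 36.4 ± 4.80 (n = 31) in HIF1α KO muscle, with ranges of 25.9 to 57.3 and 28.8 to 49.7. Because these counts cover the whole gene, with exons outside the deleted one and cells that keep it, they do not check the deletion. The share of counts on mitochondrial ribosomal RNA changed along the mouse numbers, with medians of 6.55, 1.84, 2.67, and 5.13% in successive blocks of 16 numbers, and a fit with the block as a term was made beside the main one. The count of a gene in bulk tissue cannot tell apart fewer cells of a type from less RNA per cell.

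The promoters of the members were read in the RefSeq windows of GRCm38.p6, which run from 250 bases before to 50 bases after each start. Windows were found for 8 of the 10 members, and Bnip3l and Ndrg1 had none in that table. The core of the hypoxia response element was searched on both strands as ACGTG or GCGTG, and the E-box as CACGTG, which contains ACGTG on either strand. At least 1 core lay in 11 of the 14 windows and in a window of each of the 8 members, whereas 43.8% of all 32851 windows in the table held a core (19.6% ACGTG, 32.4% GCGTG) and 7.15% held the E-box. The 4 stretches below are the 250 bases before the start of the member with the most cores in a single window (Bnip3), of the member that varied most with time of day and exercise (Pfkfb3), and of both members that were lower in HIF1α KO muscle (Mxi1 and P4ha1). Each is written 5′ to 3′ along its gene, with the cores on either strand in capitals.
Bnip3, chr7:138909507-138909756, minus strand: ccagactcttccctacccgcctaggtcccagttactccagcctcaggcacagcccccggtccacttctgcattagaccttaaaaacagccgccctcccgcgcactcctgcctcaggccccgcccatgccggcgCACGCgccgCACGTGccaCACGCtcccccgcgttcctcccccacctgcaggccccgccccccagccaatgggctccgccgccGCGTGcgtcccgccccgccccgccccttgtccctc
Pfkfb3, chr2:11502091-11502340, minus strand: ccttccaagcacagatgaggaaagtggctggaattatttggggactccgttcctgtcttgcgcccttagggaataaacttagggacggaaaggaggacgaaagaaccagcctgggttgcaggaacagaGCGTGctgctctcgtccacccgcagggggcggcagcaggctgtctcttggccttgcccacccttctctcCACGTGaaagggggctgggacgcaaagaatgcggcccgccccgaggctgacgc
Mxi1, chr19:53329163-53329412, plus strand: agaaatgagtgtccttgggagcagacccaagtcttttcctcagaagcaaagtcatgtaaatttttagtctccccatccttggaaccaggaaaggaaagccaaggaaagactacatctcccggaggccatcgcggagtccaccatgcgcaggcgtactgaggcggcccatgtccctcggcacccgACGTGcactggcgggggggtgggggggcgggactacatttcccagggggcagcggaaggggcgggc
P4ha1, chr10:59323046-59323295, plus strand: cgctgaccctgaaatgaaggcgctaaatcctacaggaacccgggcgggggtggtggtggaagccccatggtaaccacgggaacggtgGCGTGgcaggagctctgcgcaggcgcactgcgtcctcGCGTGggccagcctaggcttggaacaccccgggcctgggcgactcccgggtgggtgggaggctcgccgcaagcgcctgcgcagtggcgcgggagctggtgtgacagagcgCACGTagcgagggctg

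Counted from 0 at the start, the Bnip3 window held 5 cores, with an E-box at positions -108 to -103 that counts once on each strand. The Pfkfb3 window held 4 cores, also with an E-box, at -53 to -48, and another core past the start. A further Pfkfb3 window, from a different start, held a single ACGTG at -60 to -56. P4ha1 held 3 cores, and each of the 2 Tfrc windows, which overlap and share 1 core, held 3. Adm and Ddit4 held 2 each, while Kdm3a had 1 core in 1 of 3 windows and Mxi1 had 1 core in each of 2 of 3 windows. These are matches of letters only, and binding was not measured.

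**Figure D1:**
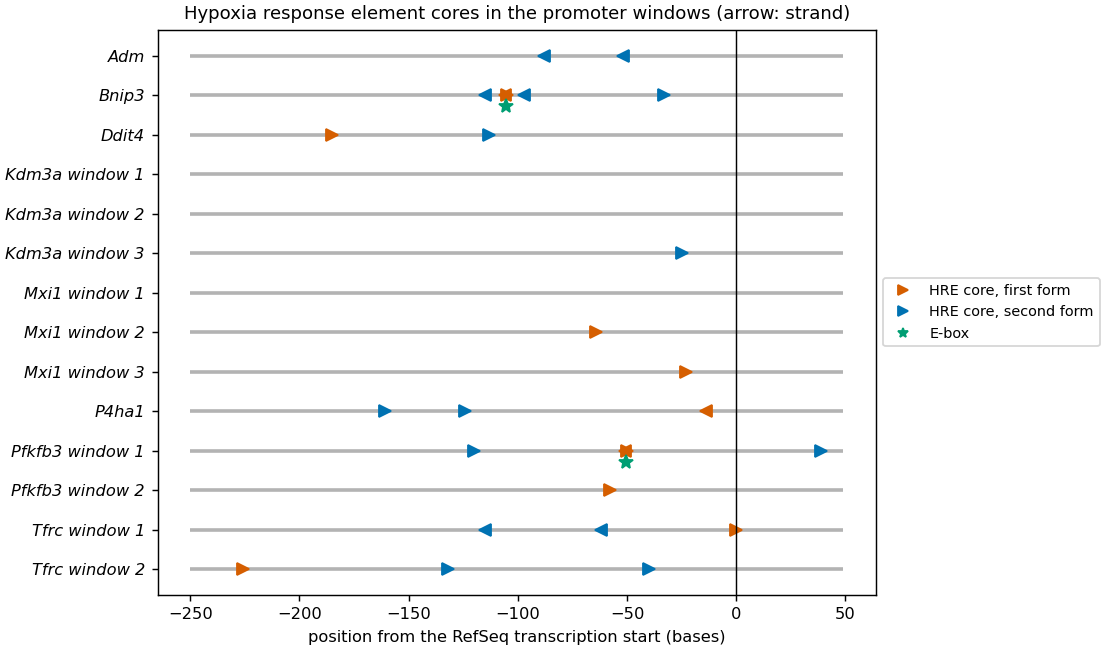
Positions of hypoxia response element cores and E-boxes in the 14 RefSeq promoter windows of 8 members. The x axis is the distance from the transcription start in bases, arrows point along the strand of a core (first form ACGTG, second form GCGTG), and stars mark E-boxes, which lie only in the windows of Bnip3 and Pfkfb3.

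The first question was which of these targets are lower when fibers lack HIF1α. Averaged over the 4 combinations of time and treatment, 2 of the 10 members were lower, Mxi1 and P4ha1, and none was higher. Mxi1 fell by 9.14% and P4ha1 fell by 8.57%. Of all genes tested, 8.26% passed the same threshold (edgeR quasi-likelihood test, Benjamini-Hochberg adjusted p under 0.1) with 3.58% lower and 4.68% higher. The median log2 fold change of the members was -0.047 with 7 of 10 below 0, against -0.0028 with 50.8% below 0 over all genes. The other 8 members, Bnip3 with its 5 promoter cores among them, did not pass.

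Mxi1 (GRCm38 chromosome 19, 53310518 to 53375810, plus strand) encodes a partner of MAX that represses genes activated by MYC. Its level ran from 23.7 to 40.6 CPM with a median of 33.9 in the 32 fl/fl mice, and from 22.0 to 37 with a median of 29.7 in the 31 HIF1α KO mice. The genotypes thus overlapped over most of their range. Among sedentary mice at ZT3, the lowest, median, and highest values were 26.9, 35.2, and 36 CPM in fl/fl and 22.0, 28.3, and 34.7 CPM in HIF1α KO muscle. In exercised mice at ZT15 they were 27, 32.6, and 37.8 CPM against 26.6, 27.5, and 36.9 CPM. In these 2 combinations, the medians lay 5 CPM or more apart, with HIF1α KO lower, whereas they were nearer in the others, at 32.8 against 33.6 CPM (sedentary, ZT15) and 34.9 against 32.4 CPM (exercised, ZT3). Averaged over the combinations, the log2 fold change was -0.14 (SE 0.039, edgeR adjusted p = 0.0258), that is, it fell by 9.14% with a 95% interval from -13.8 to -4.17%. Within single combinations the log2 fold change was negative in 4 of 4, from -0.27 (SE 0.077) in sedentary mice at ZT3 to -0.034 (SE 0.078) in sedentary mice at ZT15, and none passed (smallest edgeR adjusted p = 0.146). By block of mouse numbers, without adjustment for group or sex, the first block had means of 32.8 CPM in HIF1α KO and 32.5 CPM in fl/fl mice. In the later blocks HIF1α KO was lower, at 30.2 against 33.7, 28.5 against 32.8, and 28.5 against 33.1 CPM. Males and females, fitted with their own means, gave -0.14 and -0.14 (edgeR adjusted p = 0.118 and 0.502). Without a filter on low counts its edgeR adjusted p was 0.125. Of 3 smooth muscle markers, 2 were lower in HIF1α KO muscle, Myh11 (log2 -0.26, edgeR adjusted p = 0.0838) and Acta2 (log2 -0.18, edgeR adjusted p = 0.0889), and the sum of the 3 ranged from 62.3 to 154 CPM in fl/fl and from 64.99 to 152 CPM in HIF1α KO muscle. Their part in the genotype differences of the members was not tested. The antisense genes Gm10197 and AC133451.2 overlap Mxi1, and since the strand setting of the counting is not given in the sources used here, their reads cannot be told apart from those of Mxi1.

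P4ha1 (chromosome 10, 59323296 to 59373304, plus strand) encodes the catalytic α subunit of collagen prolyl 4-hydroxylase, the enzyme that makes collagen helices stable. It ranged from 49.8 to 80.0 CPM with a median of 63.3 in fl/fl and from 43.9 to 71.3 CPM with a median of 58.9 in HIF1α KO muscle. At ZT3, the lowest, median, and highest values in sedentary mice were 53, 67.0, and 80.0 CPM in fl/fl and 49.3, 58.5, and 71.3 CPM in HIF1α KO, and those in exercised mice were 49.8, 60.9, and 72.8 CPM and 43.9, 52.5, and 64.6 CPM. At ZT15 the medians were nearer to each other, at 62.2 and 61.9 CPM in sedentary and 63.3 and 60.9 CPM in exercised mice. The average log2 fold change was -0.13 (SE 0.046, edgeR adjusted p = 0.0909), that is, it fell by 8.57% with a 95% interval from -14.1 to -2.65%. It was below 0 in each of the 4 combinations, and none of them passed alone (smallest edgeR adjusted p = 0.299). Females gave -0.21 and males -0.057 (edgeR adjusted p = 0.111 and 0.602), and the difference between the sexes did not pass (edgeR adjusted p = 0.491).

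The P4ha1 result sat near the threshold: it stood at place 1143 by p among the 1259 genes called, against 460 for Mxi1. Its adjusted p was 0.118 without mice 41, 42, and 48, 0.123 without mice 8, 21, and 37, 0.105 without the sex term, and 0.217 without a filter on low counts. Its paralog P4ha2 had a log2 fold change of -0.097 (SE 0.063, edgeR adjusted p = 0.387), and P4hb, the partner subunit, -0.026 (SE 0.033, edgeR adjusted p = 0.703). Among 4 fibroblast markers, cells that make much of the collagen of muscle, Pdgfra was lower in HIF1α KO muscle (log2 -0.12, edgeR adjusted p = 0.0731), and the sum of the 4 ranged from 942 to 2773 CPM in fl/fl and from 836 to 1986 CPM in HIF1α KO muscle. The part of fibroblasts in the P4ha1 difference was not tested.

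**Figure D2:**
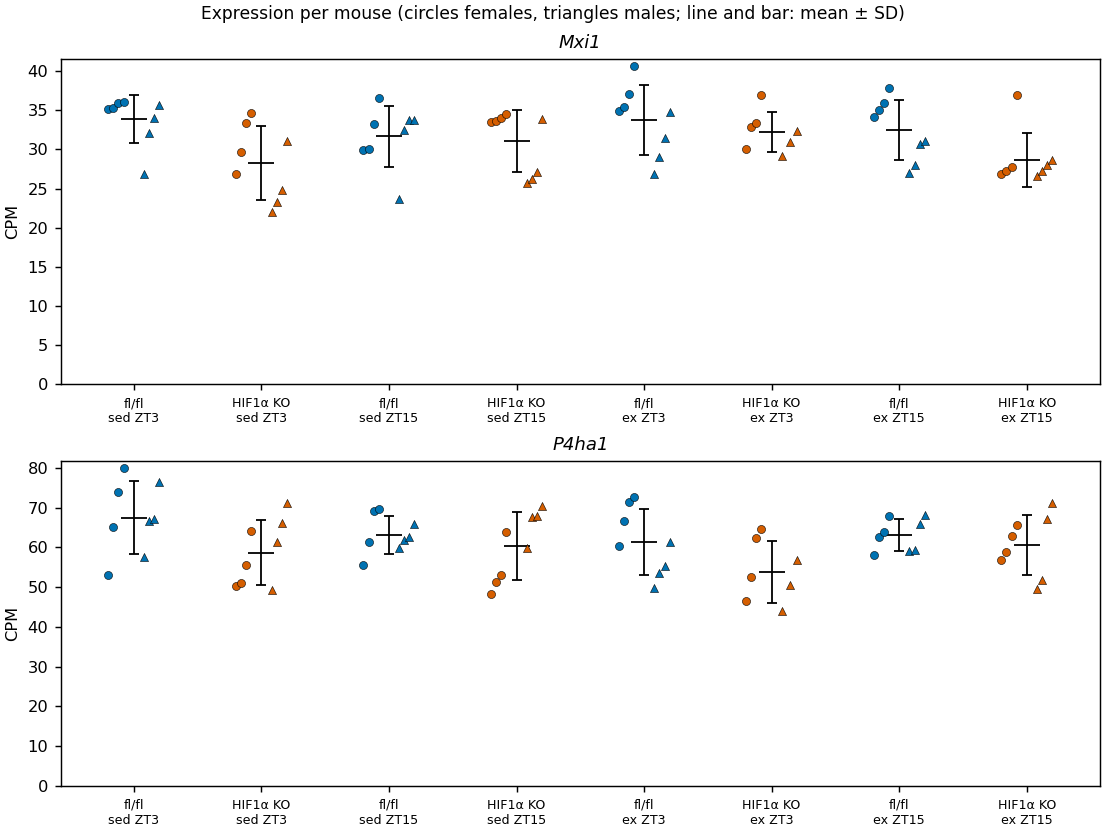
CPM of Mxi1 (upper panel) and P4ha1 (lower panel) in each of the 63 mice by group (sed, sedentary; ex, exercised), with circles for females, triangles for males, and lines with bars for the mean ± SD. The genotypes overlap in every pair of groups, and the largest gap in Mxi1 is that of sedentary mice at ZT3, with medians of 35.2 and 28.3 CPM.

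Ndrg1, a stress-responsive gene of the NDRG family that is also needed in the myelin sheath, was listed in the same direction without passing. It ranged from 20.3 to 42.3 CPM in fl/fl (median 26.3) and from 18.1 to 34.6 CPM in HIF1α KO muscle (median 24.7). The log2 fold change was -0.12 (SE 0.058, edgeR adjusted p = 0.208), and its sign was negative in 4 of 4 combinations. Over the 63 libraries, after group and sex were removed, the genes whose pattern was most like Ndrg1 were Mbp (Pearson r = 0.72) and Drp2 (r = 0.70), both genes of myelinating Schwann cells. Among the 4 Schwann cell markers, Mbp and Prx were lower in HIF1α KO muscle (-0.44 and -0.42 on the log2 scale, edgeR adjusted p = 0.0338 and 0.0512), and the sum of the 4 ranged from 37.9 to 177 CPM in fl/fl and from 33.1 to 154 CPM in HIF1α KO muscle. The part of nerve content in the values of Ndrg1 was not tested, and antisense genes (Gm2895 and Gm17035) overlap it.

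The mitophagy receptors Bnip3 and Bnip3l, which sit in the outer mitochondrial membrane and bind the autophagy machinery, did not pass between genotypes. Bnip3 (chromosome 7, 138890836 to 138909519, minus strand) was the most abundant member per length, at 63.98 ± 12.4 counts scaled to exon length and library size (RPKM, SD, n = 63), and had 144 ± 22.7 CPM in fl/fl and 146 ± 33.2 CPM in HIF1α KO muscle. Its log2 fold change was 0.016 (SE 0.063), with a 95% interval from -7.19 to 10.2%. Bnip3l had 32.8 ± 4.55 and 33.2 ± 4.21 CPM and a log2 fold change of 0.022 (SE 0.044), with an interval from -4.38 to 7.82%. In this averaged fit, a fall of the size seen for Mxi1 was thus outside the interval of both receptors. In single combinations Bnip3 ran from -0.23 to 0.22 and Bnip3l from -0.053 to 0.14. With the block of mouse numbers in the fit the averages were -0.045 and -0.011, for which no interval is given here. The 2 receptors were correlated (r = 0.62 over 63 libraries, after group and sex were removed). The block of mouse numbers was not removed, and both receptors had their highest mean in the second block. From the first to the second block, Bnip3 went from 119 to 175 CPM in HIF1α KO and from 131 to 170 CPM in fl/fl mice. Bnip3l went from 31.5 to 36.2 CPM and from 31.2 to 35.1 CPM. The part of the block in the correlation was not tested. Of 12 other mitophagy genes 0 passed by edgeR and 4 had an unadjusted p under 0.05, against 20.4% of all genes. Gm45507 and Gm18258 overlap Bnip3, and their reads may be part of its counts.

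Kdm3a, a histone H3 lysine 9 demethylase, had 21.5 ± 2.27 CPM in fl/fl and 21.3 ± 3.26 CPM in HIF1α KO muscle, and its log2 fold change of -0.0041 (SE 0.044) had a 95% interval from -6.13 to 5.93%. Adm, which encodes the vasodilator peptide adrenomedullin, was the lowest member per length at 1.72 ± 0.475 RPKM, with 7 to 131 counts in a library. Its counts may include reads of the overlapping Gm28863. It had 2.79 ± 0.897 and 2.77 ± 0.625 CPM, and its interval from -12.8 to 13.9% was too wide to exclude a change of the size seen for Mxi1. Tfrc, the transferrin receptor that brings iron into cells, had 172 ± 43.7 and 177 ± 61.1 CPM, with an interval from -10.5 to 17.6%. For Pfkfb3 (chromosome 2, 11471433 to 11554077, minus strand), whose product makes fructose-2,6-bisphosphate, the activator of phosphofructokinase, the interval ran from -22.3 to 13.8% around a log2 fold change of -0.089 (SE 0.141).

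Ddit4 (chromosome 10, 59949669 to 59951834, minus strand), which encodes the mTORC1 inhibitor REDD1, gave the widest interval, and a few mice were far above the rest. Its median was 4.54 CPM in fl/fl and 4.03 CPM in HIF1α KO muscle, with ranges from 1.26 to 141 and from 1.23 to 52.5 CPM. Above 15 CPM were 5 libraries, all from males. They were mouse 8 (fl/fl, sedentary, ZT15) with 141 CPM, mouse 37 (fl/fl, exercised, ZT15) with 102 CPM, mouse 21 and mouse 35 (HIF1α KO, sedentary, ZT3) with 52.5 and 17.6 CPM, and mouse 34 (HIF1α KO, exercised, ZT3) with 16.5 CPM. The log2 fold change was -0.45 (SE 0.354, edgeR adjusted p = 0.499) over all mice and 0.11 (adjusted p = 0.826) without mice 8, 21, and 37. Group medians, which these mice hardly move, lay between 3.13 CPM (HIF1α KO, sedentary, ZT15) and 6.02 CPM (fl/fl, exercised, ZT15). The genes most like Ddit4 were Ifi207 (r = 0.82) and Nfkbia (r = 0.81), and the correlations were 0.71 and 0.69 over the 58 libraries without the 5 high ones.

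**Figure D3:**
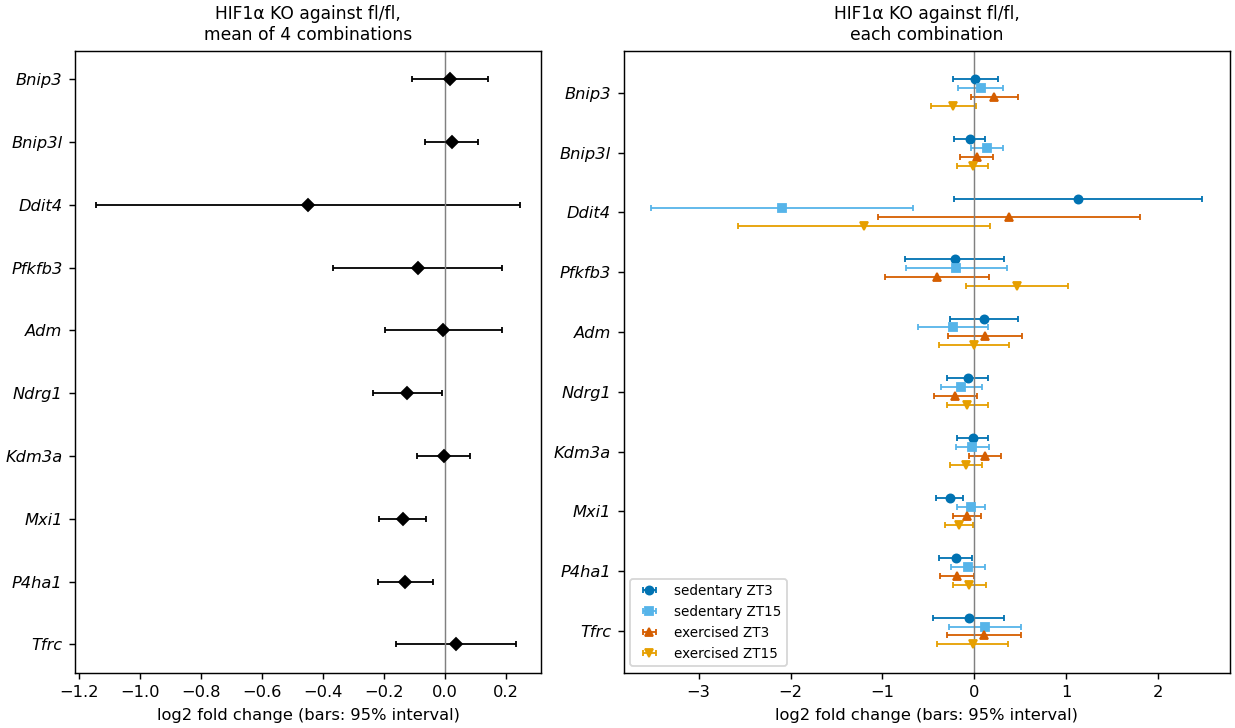
Log2 fold change of HIF1α KO against fl/fl for the 10 members, as the mean of the 4 combinations (left) and in each combination (right), with bars for 95% intervals, on different x scales. Mxi1, P4ha1, and Ndrg1 are the members whose bar lies below 0 on the left, and only the first 2 of them passed the adjusted threshold.

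Within each combination of time and treatment, 0 of the 10 members passed between genotypes by edgeR. At an unadjusted p under 0.05 there were 2 members in sedentary mice at ZT3, 1 in sedentary mice at ZT15, 0 in exercised mice at ZT3, and 1 in exercised mice at ZT15, against 6.81, 10.6, 17.4, and 7.41% of all genes. The share of all genes that passed was 0.4, 0.0459, 1.43, and 0.4%, in the same order (0.23, 0.0394, 0.558, and 0.289% lower and 0.171, 0.00656, 0.873, and 0.112% higher). DESeq2 called 1 member, Mxi1, in sedentary mice at ZT3 and 0 in the other combinations. The shares of all genes given above are those of edgeR, so the DESeq2 call cannot be weighed against them. In the interactions, the genotype difference did not change with exercise or with time to a degree that passed for any member by edgeR or DESeq2, and 0 of the 15241 genes passed by edgeR (0%). At an unadjusted p under 0.05 by edgeR, there were 0 members for genotype by exercise (2.01% of all genes) and 1 for genotype by time (4.25% of all genes), Ddit4, whose value carries the high mice named above.

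Other HIF1 targets and the partners of the members give the setting. Of 44 further targets, 42 were tested, 4 were lower in HIF1α KO muscle and 3 higher, while 3.58 and 4.68% of all genes passed in these directions. Below 0 were 32 of the 42, with a median log2 fold change of -0.094, against 50.8% of all genes below 0. The list was chosen with earlier results of these data known, so its counts are a description. The lower targets were Narf (-0.48, SE 0.061, from 143 ± 25.2 to 103 ± 18.2 CPM), Ankrd37 (-0.56, SE 0.161, from 1.74 ± 0.883 to 1.18 ± 0.494 CPM), the lipoprotein receptor gene Vldlr (-0.16, SE 0.049), and the carbonic anhydrase gene Car9 (-0.53, SE 0.184, from 0.738 ± 0.373 to 0.524 ± 0.322 CPM). Ankrd37 and Car9 thus had few counts in shallow libraries. Car9 ran from -1.26 (SE 0.382) in exercised mice at ZT3 to -0.010 (SE 0.388) in sedentary mice at ZT15. Jmjd6 had the smallest p of the targets that were higher (0.17, SE 0.052). Of 54 partners and paralogs, 49 were tested and 1 passed, while 8.26% of all genes did. It was Slc40a1, the iron exporter ferroportin, which fell from 29.7 ± 8.79 to 19.3 ± 8.07 CPM (log2 -0.61, SE 0.109, edgeR adjusted p = 0.000106), while the iron importer Tfrc did not pass. Of the 10 genes of the HIF system 0 passed by edgeR and 3 had an unadjusted p under 0.05, against 20.4% of all genes, with Hif1a at 0.0042 (SE 0.049).

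Time of day was tested next, as the study asked how the early rest phase (ZT3) and the early active phase (ZT15) differ. These labels give the time of the run or sham treatment, and muscle was taken 3 h after it, so the differences belong to those later times. Pfkfb3 fell by 72.8% from ZT3 to ZT15. Tfrc fell by 22.0% and Kdm3a fell by 10.5%, and no member was higher. Thus 3 of the 10 members fell, while 8.02% of all genes passed, with 3.92% lower and 4.09% higher.

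In sedentary fl/fl mice, Pfkfb3 had a lowest, median, and highest value of 70.5, 244, and 371 CPM at ZT3 and of 20.9, 58.7, and 81.3 CPM at ZT15. In sedentary HIF1α KO mice the values were 65.2, 238, and 335 CPM at ZT3 and 22.7, 47.9, and 107 CPM at ZT15. In both genotypes, a single ZT3 mouse (a female in each case) fell into the ZT15 range. The exercised mice gave 58.3, 122, and 220 CPM against 15.6, 27.2, and 67.1 CPM in fl/fl, and 24.8, 75.2, and 197 CPM against 18.6, 32, and 92.7 CPM in HIF1α KO muscle. The log2 fold change was -1.88 on average (SE 0.144, edgeR adjusted p = 4.43e-15), which placed Pfkfb3 at rank 6 by p among 1222 genes called and at rank 3 among the 598 lower ones. It passed in all 4 combinations, at -2.19, -2.17, and -2.01 (SE 0.289 in each) in sedentary fl/fl, sedentary HIF1α KO, and exercised fl/fl mice and at -1.14 (SE 0.290, edgeR adjusted p = 0.0568) in exercised HIF1α KO mice. The last of these calls was lost with no sex term, with no filter on low counts, and at an adjusted p under 0.05. The shares of all genes that passed there were 1.88, 0.479, 1.18, and 0.663% (0.794, 0.184, 0.61, and 0.217% lower and 1.08, 0.295, 0.571, and 0.446% higher). Genotype by time gave 0.44 (SE 0.281, edgeR adjusted p = 0.981), and did not pass. Gm10851 (antisense) and Gm37975 overlap Pfkfb3, and reads from them cannot be told apart from its own.

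Tfrc ranged from 90.9 to 316 CPM at ZT3 (median 187) and from 65.9 to 226 CPM at ZT15 (median 150), with much overlap. Its log2 fold change was -0.36 (SE 0.1, edgeR adjusted p = 0.0194), and it was negative in 4 of 4 combinations, from -0.57 (SE 0.199) in sedentary fl/fl mice to -0.18 (SE 0.199) in exercised fl/fl mice. Reticulocytes carry much transferrin receptor, and of 5 red blood cell and reticulocyte markers, with sums from 76.9 to 529 CPM at ZT3 and from 73.4 to 286 CPM at ZT15, 0 passed with time by edgeR, the smallest adjusted p being 0.593. The part of blood content in the Tfrc difference was not tested. Kdm3a went from a median of 22.3 CPM at ZT3 (range 19.4 to 27.9) to 20.2 CPM at ZT15 (range 15.6 to 27.5), with a log2 fold change of -0.16 (SE 0.044, edgeR adjusted p = 0.0173), and was negative in 4 of 4 combinations. Its paralog Jmjd1c passed in the other direction (0.20, SE 0.053, edgeR adjusted p = 0.0108).

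Of the remaining members, Bnip3l stood closest to the threshold at -0.12 (SE 0.044, edgeR adjusted p = 0.106), and it passed once mouse numbers entered the fit as 4 blocks (adjusted p = 0.0285), with at least 10 counts in every library (0.0925), and by DESeq2 (0.0878). Adm was at 0.20 (SE 0.098, edgeR adjusted p = 0.272). Among the partners, Pfkfb4, a paralog of Pfkfb3, was higher at ZT15 (0.19, SE 0.058, edgeR adjusted p = 0.0345), as was P4ha2 (0.20, SE 0.063, edgeR adjusted p = 0.0414), while Ndrg4 was lower (-0.43, SE 0.123, edgeR adjusted p = 0.0207). Deptor, another inhibitor of mTOR, was higher by 0.25 (SE 0.076, edgeR adjusted p = 0.0303). Hif1a itself was lower at ZT15 (-0.19, SE 0.049, edgeR adjusted p = 0.00827). Of the 42 further targets 5 were lower and 4 higher, while 3.92 and 4.09% of all genes passed in these directions. Angptl4 (-0.83, SE 0.236) was among the lower targets and Edn1 (0.59, SE 0.112) and Ppp1r3c (0.46, SE 0.088) among the higher.

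At 3 h after the run, Pfkfb3 was the 1 member that differed between exercised and sedentary mice, and it fell by 47.1%. Of all genes, 2.84% passed, with 0.781% lower and 2.06% higher. Pfkfb3 had 143 ± 113 CPM (SD, n = 32) in sedentary and 73.2 ± 57.9 CPM (n = 31) in exercised mice, and since time of day spread both sets, the comparison within each time is the clearer one. At ZT3 the range was 65.2 to 371 CPM (median 244) in sedentary and 24.8 to 220 CPM (median 81.4) in exercised mice, and at ZT15 it was 20.9 to 107 CPM (median 58.7) and 15.6 to 92.7 CPM (median 29.1). The log2 fold change was -0.92 on average (SE 0.142, edgeR adjusted p = 1.27e-05), rank 4 by p among the 119 genes called lower.

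In single combinations it passed at ZT3, at -1.12 (SE 0.279, edgeR adjusted p = 0.0929) in fl/fl and -1.32 (SE 0.291, edgeR adjusted p = 0.0458) in HIF1α KO mice, where 0.236 and 0.131% of all genes passed (0.0394 and 0.0262% lower, 0.197 and 0.105% higher). At ZT15 it was -0.95 (SE 0.285, edgeR adjusted p = 0.350) in fl/fl and -0.29 (SE 0.282, edgeR adjusted p = 0.933) in HIF1α KO mice, where 0 and 0.0591% of all genes passed (the latter all higher). In fl/fl mice at ZT15, 1406 genes and 2 members, Pfkfb3 and Bnip3, had an unadjusted p under 0.05 by edgeR, and DESeq2 called 0 members. The ZT3 calls in both genotypes were lost with no sex term, with no filter on low counts, and when the 2 groups compared were fitted alone. The call in fl/fl mice was also lost at an adjusted p under 0.05 and without mice 41, 42, and 48, of which mouse 48 is in the exercised fl/fl group. Exercise by genotype gave 0.23 (SE 0.281) and exercise by time 0.60 (SE 0.281), and neither passed (edgeR adjusted p = 1.00 and 0.900). The 0 calls over all genes in exercise by time compare with 648 genes (4.25%) and 1 member, Pfkfb3, at an unadjusted p under 0.05 by edgeR, and DESeq2 called 0 members.

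The paralog Pfkfb4 moved in the other direction after exercise (0.26, SE 0.058, edgeR adjusted p = 0.00335), and Ddit4l, the paralog of Ddit4, was lower (-0.44, SE 0.101, edgeR adjusted p = 0.00635) while Ddit4 itself was at 0.17 (SE 0.353). Jmjd1c was higher by 0.25 (SE 0.053, edgeR adjusted p = 0.00181), with Kdm3a at -0.028 (SE 0.044). Gabarapl1, one of the autophagy proteins that mitophagy receptors bind, was higher by 0.27 (SE 0.061, edgeR adjusted p = 0.00478), with Bnip3 at 0.10 (SE 0.063) and Bnip3l at -0.057 (SE 0.044). Egln3, the oxygen sensor that is itself a HIF1 target, was higher by 0.41 (SE 0.085, edgeR adjusted p = 0.00195). Of the 42 further targets 4 were higher and 1, Bhlhe40, was lower, while 2.06 and 0.781% of all genes passed in these directions.

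**Figure D4:**
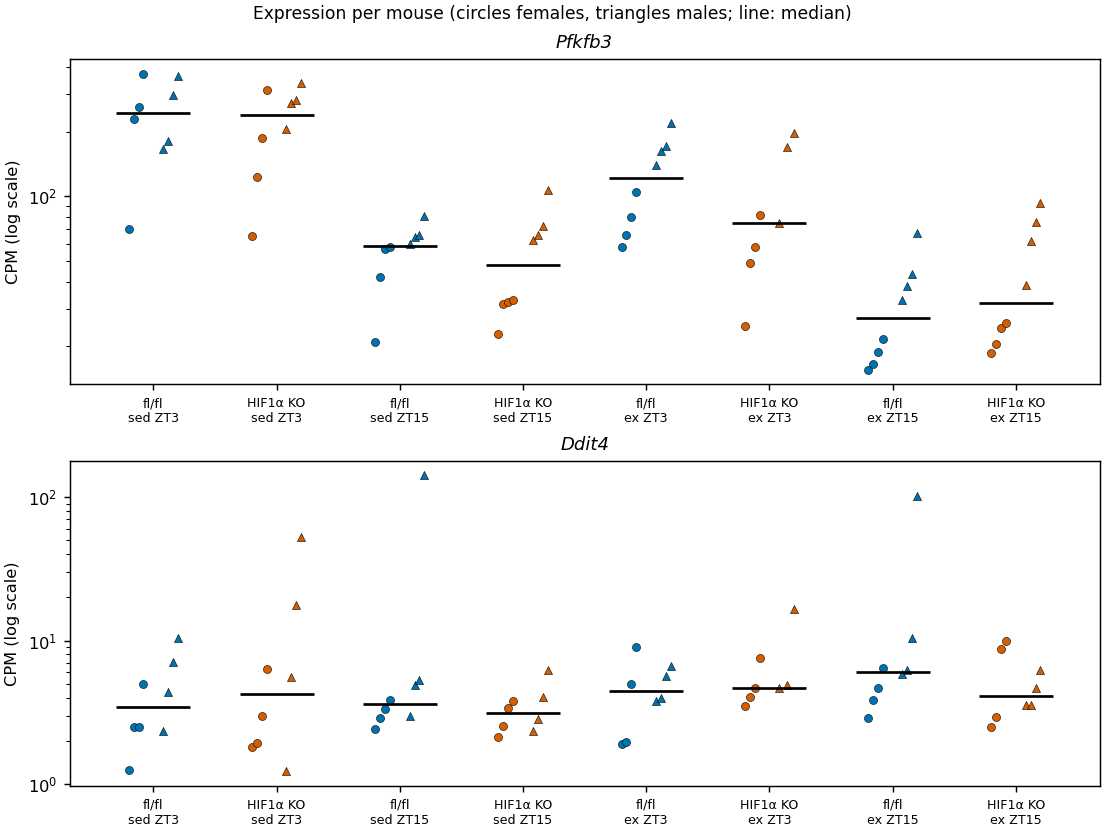
CPM of Pfkfb3 (upper panel) and Ddit4 (lower panel) in each of the 63 mice on log axes, by group (sed, sedentary; ex, exercised), with circles for females, triangles for males, and lines for the group median. Pfkfb3 medians go from 244 CPM in sedentary fl/fl mice at ZT3 to 27.2 CPM in exercised fl/fl mice at ZT15 with males mostly above females, and the Ddit4 panel shows mouse 8 at 141 CPM and mouse 37 at 102 CPM.

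Sex was a term in the fit and was tested as well. Of the 10 members, 6 passed, with 4 higher and 2 lower in males, where 25.1% of all genes passed (13.3% higher and 11.8% lower). Those higher were Ddit4 (1.43, SE 0.371, edgeR adjusted p = 0.00333), Pfkfb3 (1.03, SE 0.143, edgeR adjusted p = 9.42e-08), Tfrc (0.28, SE 0.101, edgeR adjusted p = 0.0426), and Bnip3 (0.16, SE 0.063, edgeR adjusted p = 0.0724). Those lower were Mxi1 (-0.20, SE 0.039, edgeR adjusted p = 8.02e-05) and Bnip3l (-0.14, SE 0.044, edgeR adjusted p = 0.0154). The 2 mitophagy receptors thus differed by sex in opposite directions.

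For Pfkfb3, the male mean was above the female mean in 8 of 8 groups. In exercised fl/fl mice at ZT15, the 4 females had 15.6, 16.5, 18.9, and 21.6 CPM and the 4 males 32.7, 38.1, 43.6, and 67.1 CPM. Among exercised HIF1α KO mice at ZT15, the females had 18.6, 20.5, 24.3, and 25.6 CPM and the males 38.4, 61.8, 75.9, and 92.7 CPM. Sedentary HIF1α KO mice at ZT15 had 22.7, 31.4, 32.3, and 33.05 CPM in females and 62.8, 65.9, 73.0, and 107 CPM in males. The gap was smallest in sedentary fl/fl mice at ZT3, with 70.5, 228, 261, and 371 CPM in females and 166, 181, 295, and 362 CPM in males. With separate means for each sex, the difference passed in 4 groups by edgeR. It was 1.33 (SE 0.385) in exercised fl/fl mice at ZT15, 1.38 (SE 0.383) in sedentary and 1.59 (SE 0.387) in exercised HIF1α KO mice at ZT15, and 1.47 (SE 0.395) in exercised HIF1α KO mice at ZT3, where 2.19, 2.63, 0.892, and 0.919% of all genes passed. After exercise Pfkfb3 was lower in females (-1.25, SE 0.191, edgeR adjusted p = 2.39e-05), and in males the value was -0.55 (SE 0.189, edgeR adjusted p = 0.558), and the difference between the sexes did not pass (0.70, SE 0.266, edgeR unadjusted p = 0.0119, adjusted p = 1.00).

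The mean of Mxi1 was lower in males than in females in 8 of 8 groups, and the medians over all mice were 29.05 and 34.3 CPM. At ZT15, however, the male median was above the female median in sedentary fl/fl mice (33.1 against 31.7 CPM) and in exercised HIF1α KO mice (27.6 against 27.5 CPM). Ddit4 had medians of 5.32 CPM in males and 3.38 CPM in females, and the log2 difference was 0.56 (adjusted p = 0.0420) without mice 8, 21, and 37. Bnip3 did not pass without mice 41, 42, and 48 (adjusted p = 0.120). Cell type markers also differed by sex. All 4 adipocyte markers and all 4 Schwann cell markers were lower in males, with sums from 45.6 to 261 CPM in males and 57 to 359 CPM in females for the first and from 33.1 to 128 CPM and 39.5 to 177 CPM for the second. Of 5 red blood cell markers 3 were higher in males, with sums from 80.9 to 529 CPM in males and 73.4 to 226 CPM in females, and 3 of 6 fiber markers were higher. Of 4 fibroblast markers 2 were lower in males, Pdgfra (log2 -0.13, edgeR adjusted p = 0.0166) and Col1a1 (log2 -0.62, edgeR adjusted p = 0.0478). Of 3 smooth muscle markers 1 was higher, Acta2 (log2 0.18, edgeR adjusted p = 0.0426). The part of these in the sex differences of the members was not tested.

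**Figure D5:**
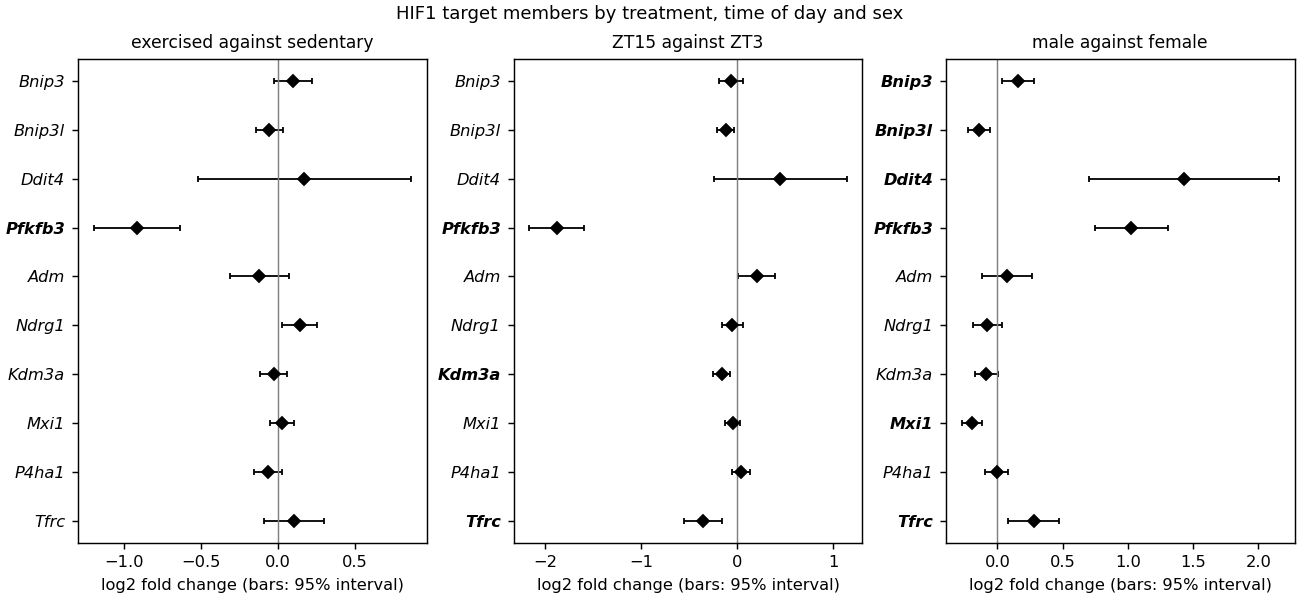
Log2 fold change of the 10 members for exercise, time of day, and sex, averaged over the other factors, with bars for 95% intervals and gene names in bold where the edgeR adjusted p was under 0.1. Pfkfb3 is at -0.92, -1.88, and 1.03 in the 3 panels, which have different x scales.

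The members did not form a single pattern across mice. After group and sex were removed, the highest correlations between members over the 63 libraries were those of Bnip3 with Bnip3l (0.62) and with Tfrc (0.52), followed by Adm with Ndrg1 (0.38). Each member had its own closest genes. Bnip3 was closest to Ugp2 (r = 0.88) and Eif4a2 (0.88), Bnip3l to Synj2bp (0.77) and Lin7c (0.75), and Tfrc to Mff (0.71) and Hacd1 (0.71). P4ha1 was closest to the chaperone genes Hsp90aa1 (0.60) and Hspb1 (0.59), and Pfkfb3 to Sav1 (0.58) and Txnip (0.54). The values were similar in size for Kdm3a with Itsn2 (0.58) and Atm (0.58), Mxi1 with Stk26 (0.57) and Gca (0.53), and Adm with Cpxm1 (0.55) and Ptgr1 (0.55). All of these share libraries, their depth, and the blocks of mouse numbers, which were not removed, and are given as a description. Tfrc, like Bnip3 and Bnip3l, had its highest mean in the second block. It went from 135 CPM in the first block to 240 CPM in HIF1α KO mice and from 154 to 202 CPM in fl/fl mice. Per length, the members ranked in the order of Bnip3, Tfrc (28.1 ± 8.51 RPKM), P4ha1 (14.9 ± 1.93), Pfkfb3 (14.4 ± 12.7), Bnip3l (8.56 ± 1.13), Ddit4 (5.32 ± 12.5), Mxi1 (4.62 ± 0.603), Ndrg1 (3.97 ± 0.693), Kdm3a (2.60 ± 0.338), and Adm. From P4ha1 to Ndrg1, each neighboring pair in this order differed by less than the larger of its 2 SDs.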

How the data were processed

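RNA from gastrocnemius muscle of 64 mice was sequenced from stranded mRNA libraries. Per the labels, the authors used STAR, mm10, and featureCounts. The deposited table holds 1 whole-number count per gene and library, with no normalization, filter, or pooling. Tool versions, annotation release, strand setting, and what was done with reads that fit several genes are not given in the sources used here. Identifiers were matched to GENCODE M21 (55141 of 55401). One CPM was 2.36 counts in the shallowest and 40.4 in the deepest library, which sets the counting error.

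From these counts, 63 libraries (without mouse 44) were analyzed in R 4.3.3 with edgeR 4.0.16: filterByExpr with a minimum count of 10 (15241 genes), TMM scaling, and a robust quasi-likelihood fit of group plus sex over all libraries. P-values were adjusted by Benjamini-Hochberg over all genes, separately for each comparison, and passing meant an adjusted p under 0.1, the threshold of the study. Averages weight the 4 combinations equally, standard errors were derived from each F statistic and log2 fold change, and 95% intervals use the normal quantile. CPM use TMM-scaled library sizes, and RPKM divide them by the exon length in M21. Patterns were compared as correlations of log2 CPM (prior count 2) after group and sex were removed. The study compared HIF1α KO mice with fl/fl littermates and kept littermates of the same sex in shared cages. The litter and cage of each mouse are not in the labels and were not in the fit, so p-values measure the spread between these mice.

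The alternatives were 64 libraries, leaving out the 3 libraries under 5000000 counts, no sex term, other filters, RLE factors, DESeq2 1.42.0, a threshold of 0.05, the block of 16 mouse numbers or mitochondrial rRNA share as a covariate, and only the compared groups. Leaving out mice 8, 21, and 37 and fitting each sex separately were chosen after seeing the data. The members and all lists were chosen with earlier results of these data known. All 10 members were named in every comparison. Of the other lists, the genes that passed in an averaged comparison were eligible (at most 5 per list and comparison), as were paralogs and the 2 genes nearest to each member. The fits were also run on simulated data, but the settings and outcomes are not reported here, so no result rests on them. Values of some single genes of these lists are not reported here.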

Additional observations from a re-analysis of the deposited data

Results flagged for a closer look

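In 80 sets of mice (10 members in 8 groups), 8 had a highest or lowest mouse whose gap to the next exceeded Dixon's 95% critical value, and chance gives about 1 in 20. Ddit4 held 5 of them, each a male at the top of its group: mouse 8 with 141 CPM (next 5.32), mouse 37 with 102 CPM (next 10.4), mouse 21 with 52.5 CPM (next 17.6), mouse 34 with 16.5 CPM (next 7.56), and mouse 64 with 6.21 CPM (next 4.03). Mouse 21, a sedentary HIF1α KO male at ZT3, was also the highest of its group in Kdm3a, at 24.9 CPM (next 22.8). In Mxi1, mouse 54, a sedentary fl/fl male at ZT3, was the lowest at 26.9 CPM (next 32.1), and mouse 9, an exercised HIF1α KO female at ZT15, was the highest at 36.9 CPM (next 28.6).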

How the results depend on the processing

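No paired analysis was possible because each mouse number occurs once, in a single group. The 22 counts of members that moved under an alternative were these. In the averaged genotype comparison, 2 members lower became 1 (Mxi1) without the 3 shallow libraries (mice 41, 42, and 48), with no sex term, at an adjusted p under 0.05, and without mice 8, 21, and 37, and 0 with no filter on low counts, where the adjusted p of Mxi1 was 0.125. In sedentary mice at ZT3, 0 members lower became 1 (Mxi1) with at least 10 counts in every library, with the mitochondrial rRNA share as a covariate, by DESeq2, and without those 3 mice. For exercise at ZT3, 1 member lower (Pfkfb3) became 0 in fl/fl mice without the 3 shallow libraries and at an adjusted p under 0.05, and 0 in both genotypes with no sex term, with no filter, and with only the compared groups in the model. For time of day, 1 became 2 in sedentary fl/fl mice with the block of mouse numbers (Tfrc), and in exercised HIF1α KO mice 1 became 0 with no sex term, with no filter, and at an adjusted p under 0.05, and 2 by DESeq2 (Kdm3a). The cause was not tested. The log2 fold change of a member changed sign in 26 cases, and in 0 of them did either value pass. Between genotypes this was so with the block of mouse numbers for Bnip3 (-0.045), Bnip3l (-0.011), Adm (0.037), and Tfrc (-0.059), with the mitochondrial rRNA share as a covariate for Bnip3 (-0.039), Adm (0.013), and Tfrc (-0.021), and without mice 8, 21, and 37 for Ddit4 (from -0.45 to 0.11), Adm (0.012), and Tfrc (-0.0073). For exercise, Ddit4 was at -0.051 with no sex term, and for time, it turned from 0.45 to -0.16 without mice 8, 21, and 37. Between sexes, P4ha1 was at 0.0045 without the 3 shallow libraries, 0.0023 with the mitochondrial rRNA share, and 0.0078 without mice 8, 21, and 37. With separate means for each sex, the genotype values changed sign in females for Bnip3 (-0.11), Bnip3l (-0.056), Ddit4 (0.17), Adm (0.069), and Tfrc (-0.20) and in males for Pfkfb3 (0.16) and Kdm3a (0.0083), the exercise values in males for Ddit4 (-0.38) and Tfrc (-0.082) and in females for P4ha1 (0.044), and the time value in females for P4ha1 (-0.029). The other 418 counts stayed within 1.5 times the main count, and of the other values of single members 435 kept their direction and side of the threshold, 17 no longer passed, and 4 newly passed. Averaged over the combinations, Pfkfb3 ranged from -1.88 to -1.80 for time and from -0.93 to -0.82 for exercise over the alternatives with both sexes. Adm, with 7 to 131 counts in a library, and Ddit4, with 5 to 1559, are the members for which depth limits the precision most.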
